A study of Homo sapiens with 6 samples.

Results

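Receptor tyrosine kinases and the ligands that bind EGFR were read in lncRNA sequencing libraries of the triple-negative human breast cancer line MDA-MB-231, made resistant to the chemotherapy drug paclitaxel (PTX). The group holds 10 of the 61016 annotated genes on file, chosen by name with earlier results of these data known. It comprises 8 receptors (EGFR, ERBB2, ERBB3, MET, AXL, EPHA2, IGF1R and FGFR1) and 2 EGFR ligands (AREG and HBEGF). Cells were stained for aldehyde dehydrogenase (ALDH) activity and sorted by flow cytometry into ALDH+ cells, called BCSC (breast cancer stem cells), and ALDH- cells, called non-BCSC, with 3 libraries of each. The study describes both fractions as PTX-resistant cells of this line, and by that description no parental, drug-sensitive cells enter the comparison. The sample titles state the resistance for BCSC only. The titles separate BCSC from non-BCSC, while the cell type label names breast cancer stem cells for all 6 libraries. The labels do not say whether the libraries of a group came from separate cultures or sorts, so the tests measure the spread between these libraries, which may be technical.

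A receptor tyrosine kinase spans the cell membrane, binds a ligand outside and, once paired with another receptor, phosphorylates tyrosines on its own tail. Adaptor proteins dock on these tyrosines and pass the signal to the RAS-MAPK and PI3K-AKT pathways, and ubiquitin ligases and endosomal sorting proteins then remove the receptor from the surface. EGFR ligands are made as membrane-bound precursors that ADAM proteases cut free. EGFR, MET and AXL are known for their high expression in basal-like and triple-negative breast cancer cells, and ERBB2 for its amplification in another class of breast tumors.

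The libraries held 9898588 to 21215352 counts, and each non-BCSC total lay below each BCSC total. The mesenchymal markers VIM (2320.4 to 3735 CPM, the unit that puts libraries of unequal depth on the same scale) and CD44 (1251 to 2802 CPM) were abundant in all 6 libraries. KRT8 and KRT18, keratins also listed for this line, were low, at 4.84 to 8.47 and 0.979 to 2.56 CPM in BCSC and at 48.7 to 68.7 and 10.2 to 12.5 CPM in non-BCSC. Genes of olfactory receptors, which are not known to be used in these cells, took 39.5 to 151 CPM in BCSC against 538 to 1228 CPM in non-BCSC, summed over 407 genes. The markers of blood cells showed the same order, with a sum over 5 genes of 0.197 to 1.45 CPM in BCSC against 14.9 to 24.9 CPM in non-BCSC. HBB and LYZ were at 0 in all BCSC libraries, and PTPRC gave most of the non-BCSC sum. Sums over 3 endothelial markers (18.5 to 34.2 against 46.9 to 88.9 CPM) and 5 epithelial and luminal markers (3.21 to 6.46 against 9.98 to 24.3 CPM) were likewise lower in each BCSC library. CDH5 gave nearly all of the endothelial sum, with means of 24.7 CPM in BCSC and 66.5 CPM in non-BCSC. A background estimated from the olfactory genes was removed as an alternative, and for low members their level is given relative to these genes. The part of the blood, endothelial and epithelial markers in the results was not tested.

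Counts of all transcripts were summed per gene and scaled to CPM, and BCSC was tested against non-BCSC over 20442 genes (edgeR quasi-likelihood test, Benjamini-Hochberg adjusted). A gene was called when its adjusted p was under 0.05 and its fold change above 2. All 10 members were tested, AREG only through its non-BCSC counts. EPHA2 was the only member called higher in BCSC, where 8.85% of all genes were called higher, and AREG was the only member called lower, where 11.3% of all genes were called lower. Without the minimum fold, EPHA2, MET, AXL and IGF1R passed as higher against 15.3% of all genes, and AREG passed as lower against 14.6%. In 5 members (these 4 and EGFR) each BCSC value lay above each non-BCSC value, against 24.2% of all genes, and the reverse held for AREG alone, against 27.9%. The median log2 fold change (BCSC over non-BCSC) was 0.56 over the members and -0.05 over all genes tested.

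**Figure D1:**
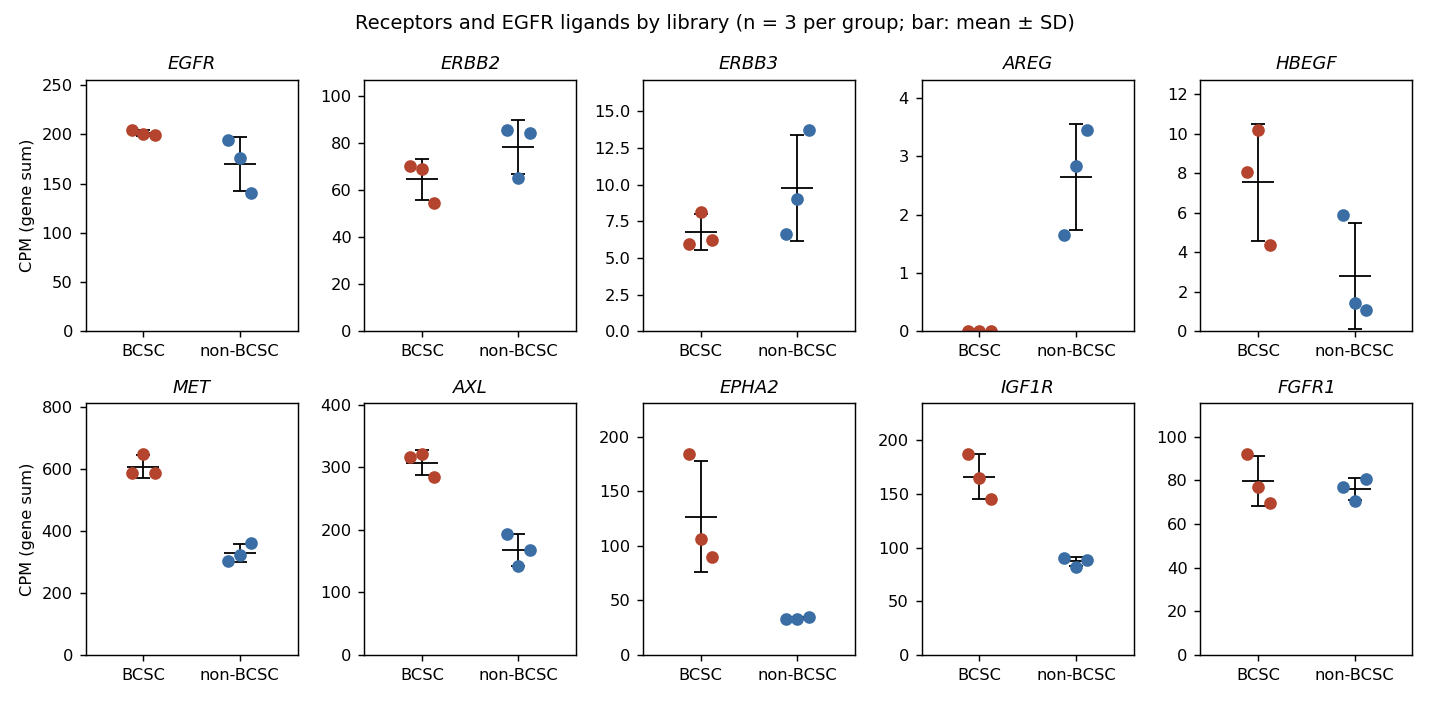
CPM of the 10 members in each library (points), with the mean and SD of each group of 3 libraries (black bars), and a separate axis from 0 for each gene. The BCSC points of MET, AXL, EPHA2, IGF1R and EGFR lie above all non-BCSC points, AREG is at 0 in the 3 BCSC libraries, and the points of ERBB2, ERBB3, FGFR1 and HBEGF overlap between the groups.

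Among the ERBB receptors, none passed the test. EGFR (ENSG00000146648, GRCh37 chr7:55086710-55279321, plus strand) is the receptor for EGF, AREG and HBEGF. Its level was 204, 201 and 199 CPM in BCSC against 194, 175 and 140.0 CPM in non-BCSC. The BCSC libraries lay close together and just above the highest non-BCSC library, and the log2 fold change was 0.24 (SE 0.13, adjusted p = 0.170, edgeR). ERBB2 (ENSG00000141736, chr17:37844167-37886679, plus strand), the family member with no known ligand, measured 70.3, 69.1 and 54.7 CPM in BCSC against 85.7, 65.1 and 84.2 CPM in non-BCSC. The groups overlapped, with a log2 fold change of -0.28 (SE 0.16, adjusted p = 0.220, edgeR). ERBB3 (ENSG00000065361, chr12:56470583-56497289, plus strand), a neuregulin receptor with little kinase activity of its own, was low in every library, at 5.91, 8.15 and 6.23 CPM in BCSC against 6.6, 9.01 and 13.7 CPM in non-BCSC. These values also overlapped (log2 fold change -0.53, SE 0.39, adjusted p = 0.323, edgeR). The non-BCSC level was 2.18 times that of the olfactory genes per kb, against 19.3 times in BCSC.

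The 2 EGFR ligands were both rare, and AREG was counted in non-BCSC libraries only. AREG (ENSG00000109321, chr4:75310853-75320722, plus strand) encodes amphiregulin, which binds EGFR only. It had 0 counts in each BCSC library and 20, 32 and 36 counts in non-BCSC (2.64 ± 0.915 CPM, SD, n = 3). A count of 0 allows up to 3 counts per library, so AREG was at least 15.1-fold lower in BCSC (adjusted p = 0.00740, edgeR), a limit that covers counting error only. AREG entered the test through its non-BCSC counts alone, so its p is no independent support. The non-BCSC level was 2.66 times that of the olfactory genes per kb. These few counts were split between the coding transcript AREG-201, with 7, 15 and 23 counts, and AREG-203, a transcript with a retained intron, with 13, 17 and 13 counts. The GRCh37 annotation also holds a near-identical copy of the gene, AREGB, whose transcript AREGB-001 is 99.9% identical to AREG-201 with 1 edit, so reads of both could not be told apart. No transcript identifier analysed here matched AREGB (0 transcripts), so no counts could be added, and the sources name both hg19 and hg38 as the build.

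HBEGF (ENSG00000113070, chr5:139712428-139726188, minus strand) encodes heparin-binding EGF-like growth factor, a ligand of EGFR and ERBB4. It gave 164, 156 and 72 counts in BCSC (8.08, 10.2 and 4.35 CPM) and 71, 16 and 11 counts in non-BCSC (5.86, 1.41 and 1.05 CPM). One non-BCSC library reached the BCSC range, and the log2 fold change of 1.43 (SE 0.69) did not pass (adjusted p = 0.143, edgeR). Without that library, non-BCSC replicate 1, the change was 2.65 and HBEGF was called higher (adjusted p = 0.0217). The mean non-BCSC level was 1.59 times that of the olfactory genes per kb, against 46.7 times in BCSC. This mean rested on non-BCSC replicate 1. Replicates 2 and 3, with 16 and 11 counts over about 2283 bases, lay below the olfactory levels of 9.94 and 15.2 counts per kb. With the olfactory background removed, the log2 fold change was 1.89 and did not pass (adjusted p = 0.330, edgeR).

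MET, AXL, EPHA2 and IGF1R were each higher in BCSC than in non-BCSC, with no overlap of libraries. EPHA2 (ENSG00000142627, chr1:16450832-16482564, minus strand), an ephrin-A receptor, had the largest change of the 4 before correction for GC content and length (with it 0.59, below 2-fold, and MET had the largest). Its level was 184, 106 and 89.6 CPM in BCSC against 33.3, 32.6 and 34.4 CPM in non-BCSC. The non-BCSC libraries were nearly equal while BCSC replicate 1 stood above the other two, and the log2 fold change was 1.92 (SE 0.25, adjusted p = 0.00104, edgeR). Without BCSC replicate 1 it was 1.55 (adjusted p = 0.000679).

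MET (ENSG00000105976, chr7:116312250-116438431, plus strand) encodes the receptor for hepatocyte growth factor. It had the highest CPM of the 10 members in all 6 libraries, at 587, 649.5 and 587 CPM in BCSC against 302, 322 and 360.4 CPM in non-BCSC. The lowest BCSC library lay well above the highest non-BCSC library, with a log2 fold change of 0.89 (SE 0.10, adjusted p = 0.000657, edgeR), short of the 2-fold criterion. AXL (ENSG00000167601, chr19:41725128-41767671, plus strand), the GAS6 receptor of the TAM family, measured 316, 322 and 284 CPM in BCSC against 193, 142 and 167 CPM in non-BCSC. Its log2 fold change was 0.88 (SE 0.13, adjusted p = 0.00171, edgeR). IGF1R (ENSG00000140443, chr15:99191768-99507759, plus strand), the receptor for insulin-like growth factors, measured 187, 164 and 145 CPM in BCSC against 90.5, 82.3 and 88.4 CPM in non-BCSC. Its log2 fold change was 0.93 (SE 0.12, adjusted p = 0.00122, edgeR), so MET, AXL and IGF1R all differed by a little under 2-fold.

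FGFR1 (ENSG00000077782, chromosome 8, minus strand), a fibroblast growth factor receptor, measured 92.3, 76.8 and 69.8 CPM in BCSC against 76.9, 70.5 and 80.6 CPM in non-BCSC. The groups overlapped (log2 fold change 0.07, SE 0.14, adjusted p = 0.746, edgeR), and the sign was negative with RLE size factors (-0.023), with genes of at least 10 counts in every library (-0.084), after removal of the olfactory background (-0.14), after the correction for GC content and length (-0.81) and without BCSC replicate 1 (-0.049).

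Several of these values moved when GC content and transcript length were corrected together. Across all genes tested, the log2 fold change rose with GC content (Spearman correlation 0.54 over 20442 genes of the same 6 libraries, given as a description), and the median GC content was 44.8%. EPHA2 (60.3%), ERBB2 (59.2%), AXL (56.1%) and FGFR1 (56.0%) lay furthest above this median. ERBB3 (52.6%), IGF1R (51.7%), HBEGF (50.2%) and EGFR (48.2%) also lay above it, and MET (43.6%) and AREG (41.0%) below it. Once GC content and transcript length were corrected in each library, MET stayed higher and became larger (log2 fold change 1.42, adjusted p = 0.000251). EPHA2 (0.59, adjusted p = 0.0250) and IGF1R (0.48, adjusted p = 0.0278) still passed as higher below the 2-fold criterion, so that EPHA2 was no longer called and MET was. AXL no longer differed by the test (0.04, adjusted p = 0.891). ERBB2 was called lower in BCSC (-1.49, adjusted p = 0.000313), and FGFR1 passed as lower (-0.81, adjusted p = 0.00308). The correction moved the median of all genes from -0.05 to 0.20, and the shift of the log2 fold change over the same genes was 0.56. The rise of MET from 0.89 to 1.42 was no larger than this general shift. The corrected values of EPHA2 (0.59) and IGF1R (0.48) were near or below the shift, though above the moved median of 0.20. Each test was against 0, so it cannot tell whether EPHA2 and IGF1R exceeded the shift. Of the 4 members higher in BCSC, MET, EPHA2 and IGF1R passed against 0 with and without the correction, and AXL only without it.

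**Figure D2:**
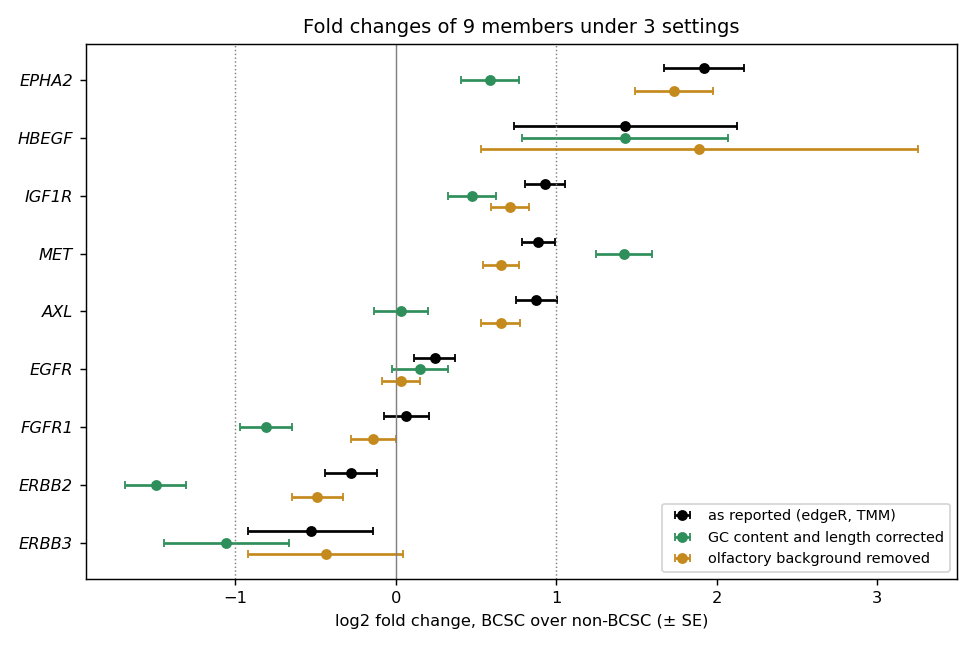
Log2 fold change (BCSC over non-BCSC, x axis, bars ± SE) of 9 members as reported, with GC content and length corrected, and with the olfactory background removed; dotted lines mark 2-fold, and AREG, at 0 in BCSC, is left out. With the correction, MET moved from 0.89 to 1.42, AXL from 0.88 to 0.04, EPHA2 from 1.92 to 0.59 and ERBB2 from -0.28 to -1.49, whereas removal of the olfactory background left MET, AXL, EPHA2 and IGF1R between 0.65 and 1.74.

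The table is deposited per transcript, so the transcripts that carry each sum could be read. The members had 165 transcripts on file, of which 53 were at 0 in all libraries and 46 were tested. None was called by edgeR, where 0.593% of all 46176 transcripts tested were called higher and 0.191% lower. By an unadjusted p under 0.05, 7 of the 46 passed, 6 of them higher in BCSC, against 17.4% of all transcripts. DESeq2 called 5, but no share over all transcripts is at hand for it, so this count is not read as a result about the members. Protein-coding transcripts took nearly all counts of AXL, EPHA2, IGF1R and MET (91.5% to 100% in every library). EPHA2-201 alone held over 99% of the EPHA2 counts in every library, with 3731, 1622 and 1481 counts in BCSC against 403, 368 and 358 in non-BCSC (log2 fold change 2.01, SE 0.35, adjusted p = 0.0655, edgeR).

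For MET, AXL and IGF1R most counts fell on pairs of coding transcripts that differ by a short in-frame stretch. These stretches are shown because they are the coding difference between the forms, and for MET and IGF1R the only difference in the whole transcript. They are written 5′ to 3′ from the spliced transcript of the longer form with 30 bases on each side, and capitals mark the bases that the shorter form lacks. MET-201 has 54 bases (the length of 18 codons) more than MET-202, at GRCh37 chr7:116399391-116399444, plus strand, the start of its exon 10. AXL-201 has 27 coding bases (the length of 9 codons) more than AXL-202, at chr19:41745599-41745625, plus strand, the whole of its exon 10, and both forms also differ outside the coding sequence, with lengths of 4717 and 3206 bases. IGF1R-217 has 3 bases (the length of 1 codon) more than IGF1R-216, at chr15:99472787-99472789, plus strand, the start of its exon 14.
MET-201: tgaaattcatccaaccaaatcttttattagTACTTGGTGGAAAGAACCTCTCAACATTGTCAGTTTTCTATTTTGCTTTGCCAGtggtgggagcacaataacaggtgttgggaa
AXL-201: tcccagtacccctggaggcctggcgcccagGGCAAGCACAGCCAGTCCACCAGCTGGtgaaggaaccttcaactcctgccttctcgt
IGF1R-217: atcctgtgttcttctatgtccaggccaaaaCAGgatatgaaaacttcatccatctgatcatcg

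Of these 3 pairs, only that of IGF1R had a different leading form in all BCSC and all non-BCSC libraries. IGF1R-217 held 93.7%, 95.3% and 79.1% of the IGF1R counts in non-BCSC. IGF1R-216, which lacks the 3 bases CAG, led in the 3 BCSC libraries with 51.1%, 60.5% and 49.5%, against 47.5%, 38.1% and 48.6% for IGF1R-217. The lead was thus narrow in BCSC replicates 1 and 3. IGF1R-217 itself had 1806, 960 and 1169 counts in BCSC against 1028, 887 and 729 in non-BCSC (log2 fold change 0.014, SE 0.24). The forms differ by 3 bases only, and how reads were assigned to them is not given. IGF1R-216 had 1944, 1524 and 1191 counts in BCSC against 52, 0 and 180 in non-BCSC, and the groups did not overlap, yet its log2 fold change of 3.74 (SE 1.76) did not pass (adjusted p = 0.362, edgeR). MET-202 led in all 6 libraries, with 7128, 6111 and 9442 counts in BCSC against 3582, 3393 and 3188 in non-BCSC (log2 fold change 0.62, SE 0.18, adjusted p = 0.158, edgeR). MET-201, picked for its values, had 4390 and 3744 counts in BCSC replicates 1 and 2 but 183 in replicate 3, near the 30, 181 and 175 counts of non-BCSC. AXL-201 held 50.7% and 79.5% of AXL counts in BCSC replicates 2 and 3 and all of them in non-BCSC replicate 2, while AXL-202 led in replicate 1 of both groups, with 55.4% and 54.2%.

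EGFR, ERBB2, ERBB3 and FGFR1 had large shares of counts on transcripts that are not annotated as coding. EGFR-201, the EGFR transcript of highest mean count in both groups, had 3116, 1599 and 2166 counts in BCSC against 1144, 559 and 1076 in non-BCSC (log2 fold change 0.74, SE 0.34, adjusted p = 0.347, edgeR). In non-BCSC replicate 2 the retained-intron transcript EGFR-213 led instead, with 47.9% of EGFR counts. ERBB2-214, a retained-intron transcript, had the highest mean in both groups and took 28.1% to 35.9% of ERBB2 counts in BCSC against 17.8% to 43.4% in non-BCSC. The coding share of ERBB2 was 45.9%, 18.3% and 60.6% in BCSC against 46.5%, 47.1% and 46.9% in non-BCSC. For ERBB3, the retained-intron transcript ERBB3-224 led in the 3 non-BCSC libraries, and the coding transcript ERBB3-228 had 99 counts in BCSC replicate 2 and 0 in the other 5 libraries, so that the sum of coding transcripts gave a log2 fold change of 0.52 (adjusted p = 0.777), opposite in sign to that of the whole gene.

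FGFR1 differed most between its total and its coding transcripts. Coding transcripts took 32.9%, 34.6% and 7.11% of FGFR1 counts in BCSC (617, 407 and 82 counts) and 2.58%, 0.501% and 0.595% in non-BCSC (24, 4 and 5 counts). Each BCSC library lay above each non-BCSC library, and in a test of coding transcripts summed per gene FGFR1 was called higher (log2 fold change 4.28, SE 0.93, adjusted p = 0.0238, edgeR), where 6.87% of all genes were called higher. The coding sum passed the filter on low counts through BCSC, the group where it was high, so this p is no independent support. The leading coding transcript was not the same in BCSC replicates 1 and 2, and FGFR1-225, with a retained intron, had the highest mean count in both groups. FGFR1-257, picked for its values, had 117, 98 and 64 counts in BCSC against 0 in each non-BCSC library, at least 20.03-fold higher against the floor of 3 counts (adjusted p = 0.0585, edgeR).

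**Figure D3:**
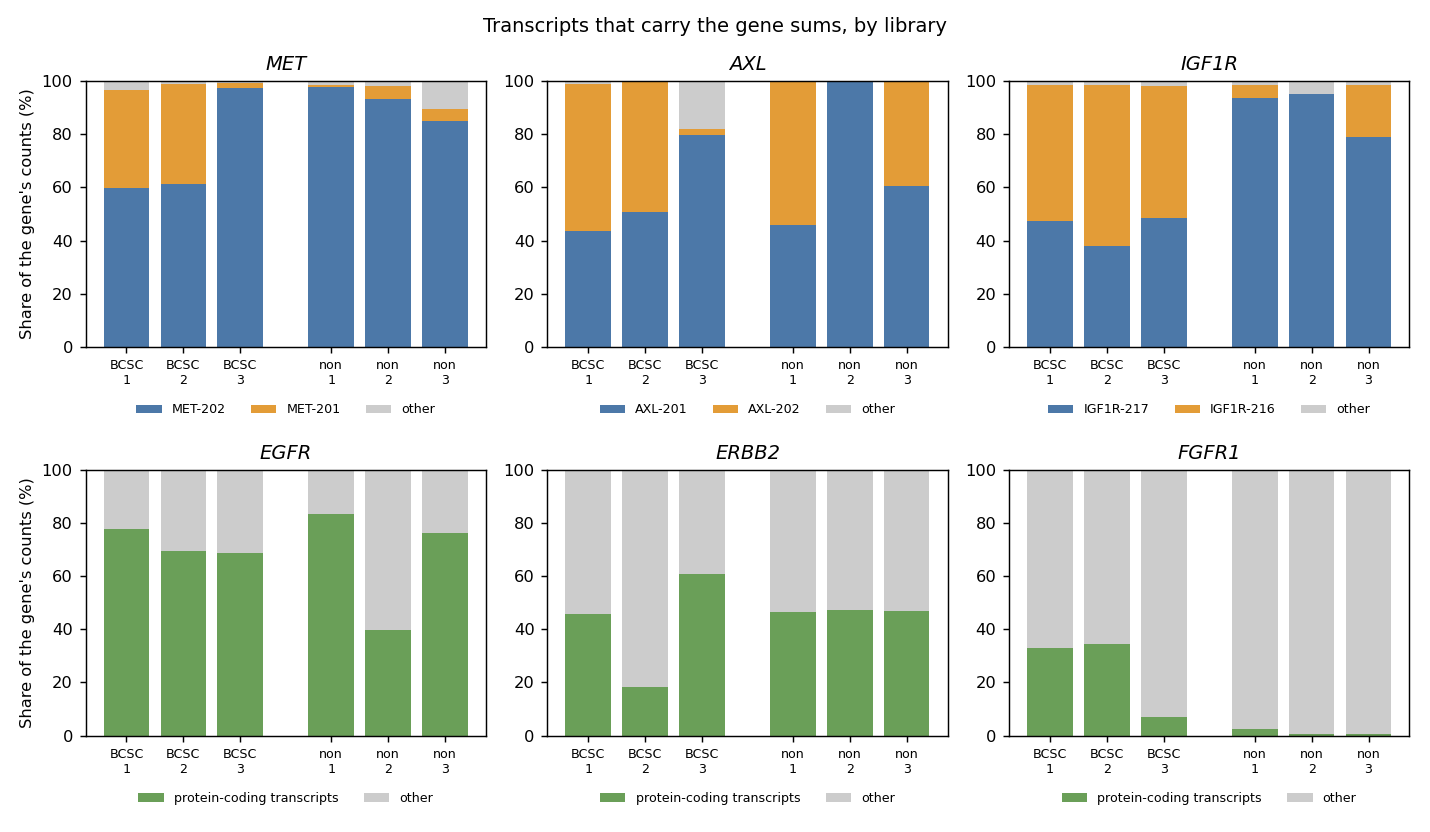
Share of each gene's counts (%, y axis) by library (x axis; non, non-BCSC): named coding transcripts of MET, AXL and IGF1R in the top row, and all protein-coding transcripts of EGFR, ERBB2 and FGFR1 in the bottom row. IGF1R-216 (orange) holds 49.5% to 60.5% in BCSC and at most 19.5% in non-BCSC, and the coding share of FGFR1 is 7.11% to 34.6% in BCSC and at most 2.58% in non-BCSC.

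Levels of different members were compared per length, as counts per base of their transcripts (weighted by counts) scaled to the same sum in each library. In BCSC the order was MET (260.0 ± 19.6, SD, n = 3), AXL (218 ± 9.45), EPHA2 (92.1 ± 32.4), EGFR (78.5 ± 2.69), FGFR1 (54.9 ± 5.31), ERBB2 (43.4 ± 4.27), IGF1R (39.7 ± 3.15), HBEGF (9.48 ± 3.58), ERBB3 (4.37 ± 0.830) and AREG at 0. Libraries overlapped between EPHA2 and EGFR and between ERBB2 and IGF1R, so these neighbours were not separated. In non-BCSC the order was MET (143 ± 20.4), AXL (121 ± 16.1), EGFR (67.1 ± 7.63), ERBB2 (53.6 ± 8.40), FGFR1 (53.6 ± 5.50), EPHA2 (25.04 ± 1.85), IGF1R (21.3 ± 1.40), AREG (7.84 ± 3.06), ERBB3 (6.50 ± 2.74) and HBEGF (3.48 ± 3.22). Here the neighbours MET and AXL, EGFR and ERBB2, ERBB2 and FGFR1, AREG and ERBB3, and ERBB3 and HBEGF overlapped. MET and AXL thus led the receptors in both fractions, and EPHA2 moved from rank 6 in non-BCSC to rank 3 in BCSC. With the length of the longest transcript, IGF1R came at rank 5 and FGFR1 at rank 7 in BCSC.

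The rest of the pathway was read in 6 lists of 110 genes, of which 96 were tested. In all, 9 were called higher and 11 lower in BCSC, near the 8.85% and 11.3% of all genes, with a median log2 fold change of -0.06 against -0.05 over all genes. Of 50 other receptor tyrosine kinases, 40 were tested, 3 were called higher and 8 lower (8.85% and 11.3% of all genes), and the median was -0.53. DDR1, a collagen receptor, had 1047, 488 and 502 counts in BCSC against 121, 154 and 139 in non-BCSC (log2 fold change 1.62, SE 0.27, adjusted p = 0.00318, edgeR). EPHB4, an ephrin-B2 receptor (1.41, adjusted p = 0.0108), and TYRO3, a TAM receptor like AXL (1.22, adjusted p = 0.0405), were the other two called higher. The neuronal ephrin receptors EPHA7 (-3.17, adjusted p = 0.000660), EPHA5 (-2.97, adjusted p = 0.00112) and EPHA6 (-1.99, adjusted p = 0.00429), and ERBB4, the fourth ERBB receptor (-2.35, adjusted p = 0.00283), were called lower. ERBB4 had 50, 62 and 75 counts in BCSC against 165, 195 and 266 in non-BCSC. Relative to the olfactory genes per kb, it stood at 3.55 times in BCSC against 1.59 times in non-BCSC. This ratio was 5.14 against 1.65 for EPHA6, 4.84 against 3.88 for EPHA7 and 6.37 against 4.39 for EPHA5. Relative to the olfactory genes, none of these receptors was thus lower in BCSC. With GC content and length corrected, DDR1 (0.32, adjusted p = 0.346), EPHB4 (-0.06, adjusted p = 0.851) and TYRO3 (0.27, adjusted p = 0.540) no longer passed, while EPHA7, EPHA5 and ERBB4 were still called lower and EPHA6 passed below the 2-fold criterion (-0.86, adjusted p = 0.0384).

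All 9 other ligands of ERBB receptors were tested, where 8.85% of all genes were called higher and 11.3% lower. NRG2, a neuregulin that binds ERBB3 and ERBB4, was called higher, with 186, 96 and 88 counts in BCSC against 25, 30 and 9 in non-BCSC (log2 fold change 1.89, SE 0.58, adjusted p = 0.0348, edgeR), and none was called lower by edgeR, whereas DESeq2 called EREG (-1.71, adjusted p = 0.0301) and NRG4 (-2.72, adjusted p = 0.0152) lower. NRG2 no longer passed with the same correction (0.50, adjusted p = 0.487). The list's median was -0.35, and 0.31 with the correction. Of 17 ligands of the other member receptors, 14 were tested. None was called higher (8.85% of all genes), and 3 were called lower (11.3% of all genes). The list median was 0.14, and -0.23 with DESeq2. HGF, the ligand of MET, had 4, 5 and 23 counts in BCSC against 110, 150 and 238 in non-BCSC (-4.56, SE 0.73, adjusted p = 0.00277, edgeR). FGF7 (-3.38, adjusted p = 0.00677) and FGF10 (-2.62, adjusted p = 0.0168), fibroblast growth factors, were the other two, and all 3 were called lower with the correction too. With the olfactory background removed, HGF (-5.14, adjusted p = 0.00534) and FGF7 (-3.63, adjusted p = 0.0131) were called and FGF10 did not pass (-2.54, adjusted p = 0.0659). Relative to the olfactory genes per kb, HGF stood at 1.06 times in BCSC against 3.01 times in non-BCSC. This ratio was 6.15 against 6.24 for FGF7 and 2.14 against 1.52 for FGF10. Fibroblast markers, 5 genes, summed to 34.6 to 48.6 CPM in BCSC against 70.6 to 90.3 CPM in non-BCSC. Of the 7 genes of ligand shedding none was called, where 8.85% of all genes were called higher and 11.3% lower. ADAM12, a protease, passed as higher without the minimum fold (0.64, adjusted p = 0.0112, edgeR), where 15.3% of all genes passed. The list median of 0.03 was negative with RLE size factors (-0.06), DESeq2 (-0.022) and the olfactory background removed (-0.14).

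Among genes that act downstream of the receptors or remove them, those called were higher in BCSC, apart from LRIG1, which limits ERBB receptor levels and was called lower once GC content and length were corrected (-1.18, adjusted p = 0.000527, against -0.33, adjusted p = 0.184, without it). Of 13 adaptors, all tested, 2 were called higher (8.85% of all genes) and none lower (11.3% of all genes). Without the minimum fold, 8 passed as higher (15.3% of all genes), and the median was 0.40. PLCG1, a phospholipase that docks on active receptors, had 1277, 758 and 753 counts in BCSC against 312, 225 and 223 in non-BCSC (log2 fold change 1.24, SE 0.20, adjusted p = 0.00266, edgeR). GAB2, a docking protein, had 400, 260 and 205 counts in BCSC against 40, 78 and 46 in non-BCSC (1.75, SE 0.38, adjusted p = 0.00935, edgeR). Of 14 inhibitors and turnover genes, 13 were tested, 3 were called higher (8.85% of all genes) and none lower (11.3% of all genes). Without the minimum fold, 6 passed as higher and 2 (USP8 and LRIG3, both -0.48) as lower, against 15.3% and 14.6% of all genes. The list median was 0.36. CBL, a ubiquitin ligase that marks EGFR and MET for breakdown, had 5894, 4232 and 4892 counts in BCSC against 1350, 1077 and 1129 in non-BCSC (1.45, SE 0.10, adjusted p = 6.8e-05, edgeR). HGS, an endosomal sorting protein (1.5, adjusted p = 0.0147), and RNF41, a ubiquitin ligase for ERBB3 (1.08, adjusted p = 0.00290), were the other two. With the correction, CBL (1.77, adjusted p = 0.000103) and RNF41 (1.08, adjusted p = 0.00172) were still called higher, whereas PLCG1 (0.31, adjusted p = 0.185), GAB2 (0.86, adjusted p = 0.0841) and HGS (0.13, adjusted p = 0.769) did not pass.

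**Figure D4:**
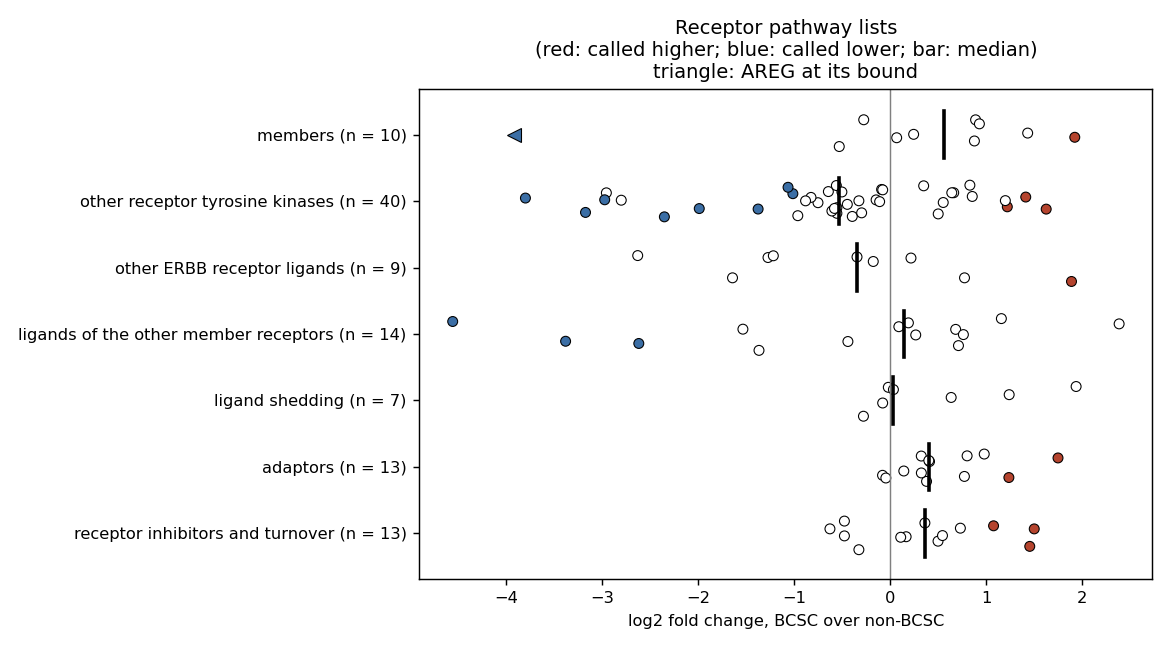
Log2 fold change (BCSC over non-BCSC, x axis) of the members and of the tested genes of 6 pathway lists (y axis, vertical jitter only); filled points were called higher (red) or lower (blue), bars mark medians, and AREG is drawn as a triangle at its bound of 15.1-fold. Called genes of the adaptors and of the inhibitors and turnover genes lie to the right of 0, and those of the ligands of the other member receptors to the left. Of all genes tested, 8.85% were called higher and 11.3% lower.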

How the data were processed

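Per the labels, first-strand cDNA was primed at random on total RNA, and a dUTP-marked second strand was degraded. The authors trimmed adapters and aligned reads with HISAT2; the submitters' processing notes name hg38, featureCounts and DESeq2, while the methods name hg19. What the authors deposited are estimated counts per Ensembl transcript, in whole numbers, not normalized, without coordinates. How reads were assigned to transcripts, and whether by strand, is not given in the sources used here, so counts of genes that overlap on the other strand, such as EGFR-AS1, EPHA2-AS1, MIEN1 (at ERBB2) and LETM2 (at FGFR1), may be mixed with those of members.

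Of 252618 transcripts, 249618 (98.81%, at least 99.66% of counts) matched GENCODE on GRCh37 by identifier, and 2996 and 4 with assembler-made identifiers did not. Counts were summed per gene. Coordinates and sequences are GRCh37 and serve only for location. A count of 0 allows up to 3 counts, 0.141 to 0.303 CPM of the raw total by library, for counting error only. The olfactory CPM also used raw totals, whereas the CPM of members, lists and markers and the bounds used totals scaled by TMM. Libraries of a group differed beyond counting error (chi-square per gene 15.2 to 42.1).

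Tests used edgeR 4.0.16 (R 4.3.3) with TMM, filterByExpr and the quasi-likelihood test (robust) on group alone, adjusted over all genes or transcripts tested. SE is the log2 fold change over the square root of F. Tests were tried on simulated counts. Tables and figures were made with Python 3.11.15, pandas 2.3.3 and matplotlib 3.10.9. Alternatives were RLE size factors, DESeq2 1.42.0, other filters, a replicate block, a loess correction for GC content and length (span 0.3), removal of a per-kb background from olfactory receptor genes, coding transcripts only, no minimum fold, the longest transcript as length and each library left out. For the pathway lists, the correction and the RLE size factors were added after the data were seen.

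The members and lists were chosen with earlier results of these data known. Named were all members, the called genes of smallest p in each list (at most 4 per direction), and each member's called transcripts and the one of highest mean count per group. Other transcripts, and the marker and olfactory genes given as checks, were picked after their values were seen.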

Additional observations from a re-analysis of the deposited data

How the results depend on the processing

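Across all genes, the 1810 higher and 2307 lower calls (43.96% higher) became 3007 and 1845 (62.0% higher) with GC content and length corrected, 1788 and 1086 (62.2%) with the olfactory background removed, 1925 and 4886 (28.3%) with DESeq2, 1383 and 1177 (54.0%) where each library had at least 10 counts, and 909 and 735 (55.3%) with coding transcripts only. Members called higher numbered 2 in place of 1 with no filter on low counts (IGF1R added at 1.0), with the replicate block (HBEGF added), with the GC and length correction plus the block (MET and HBEGF) and with coding transcripts only (FGFR1 added), and 4 with no minimum fold. Members called lower numbered 0 where each library had to hold 10 counts and with coding transcripts only, where AREG was not tested, and 2 with the GC and length correction, with or without the block, where ERBB2 was added. Leaving out each library in turn gave 1 to 4 members called higher and 1 called lower. Without non-BCSC replicate 1, AXL (1.04), IGF1R (1.01) and HBEGF (2.65) were added, and without BCSC replicate 3, IGF1R (1.01). DESeq2 called 5 member transcripts in place of 0, with no share over all transcripts to set beside it, and leaving out a library gave 0 to 0. Pathway list calls ran from 7 to 11 higher and 11 to 15 lower.

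FGFR1 changed sign with RLE size factors (-0.023), at least 10 counts in every library (-0.084), the GC and length correction (-0.81; with the block -0.80), the olfactory background removed (-0.14) and without BCSC replicate 1 (-0.049; leaving out other libraries gave up to 0.15), and ERBB3 with coding transcripts only (0.52). The cause was not tested. MET, EPHA2 and IGF1R passed with the same sign in all 15 alternatives, AXL in 13 of 15, and AREG in all 13 that tested it.

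Whether replicate numbers pair the libraries could not be settled from these values. The correlations of same-numbered deviations from the group means were 0.179, 0.0143 and 0.219, and those between replicates 1 and 3 were -0.186 and -0.200. Replicates 1 and 3 matched best with their own number, and BCSC replicate 2 did not. With the replicate block, HBEGF passed (1.75, adjusted p = 0.0469), the members' counts were 2 higher and 1 lower, and no member transcript was called (0). The summing of AREG with AREGB was not run. ERBB3, AREG and HBEGF had the fewest counts of the members.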
